A study of Drosophila melanogaster with 12 samples.

Results

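The 8 genes described here are second copies of cytosolic ribosomal protein genes in Drosophila melanogaster, several of which are known from the testis or ovary: RpL22-like, RpL10Aa, RpL37b, RpS28a, RpS10a, RpS19b, RpS15Ab and RpL34a. They were taken by name, as 8 of a list of 9, from the 14161 genes of the deposited tables, and each was set beside the broadly used copy of the same protein: RpL22, RpL10Ab, RpL37a, RpS28b, RpS10b, RpS19a, RpS15Aa and RpL34b. The libraries came from whole adult flies. A difference between the sexes could therefore be measured, but the organ that made the RNA was not observed.

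Ribosomal proteins build the small subunit (RpS), which decodes mRNA, and the large subunit (RpL), which joins amino acids. Most are encoded by a single gene used in every cell. Some fly ribosomal proteins have a duplicate gene that is used mainly in germ cells, so that ribosomes in the gonads can carry a different version of that protein. RpL22-like is the best studied of the testis copies.

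RNA-seq was done on 12 libraries, in 4 groups of 3 biological replicates: MSL2 males, MSL2 females, control males and control females. MSL2 is the protein that normally limits assembly of the dosage compensation complex to males, where the complex raises transcription from the single X chromosome. MSL2 females were y w and carried 1 copy of a mini-white marked P-element construct, (w+) H83M2-6I, which expresses msl2 from an hsp83 promoter, with a wild-type chromosome 3 pair. Control females and control males were y w and carried the chromosome 3 balancer TM3 over a wild-type homologue. Thus MSL2 females differed from control females both by the transgene and by the absence of TM3, and these cannot be told apart. For MSL2 males the sources used here give no genotype beyond the label, and for no group do they give an age.

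The libraries held 27729411 to 79622278 counts. At that depth a floor of 3 counts equals 0.0388 to 0.107 CPM (counts scaled to library size, with TMM factors). Replicates of a group correlated at Pearson r of 0.982 to 0.997 over log2 CPM. Of all genes, 13060 passed the filter on low counts and were tested, among them all 8 paralogs and all 8 partners. RpL22-like, RpL37b and RpS28a, with at most 12 reads in any female library, passed on the strength of their male libraries. A gene was called when its Benjamini-Hochberg adjusted p in edgeR's quasi-likelihood test, taken over all 13060 genes, was below 0.05. Fold changes are edgeR log2 values with their SE.

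All 8 paralogs lie on autosomes, 3 of them (RpL22-like, RpL37b and RpS15Ab) on chromosome arm 2R and 5 on 3R. Of the partners, 6 lie on the X chromosome, whereas RpL10Ab lies on 3L and RpL34b on 3R. In a later gene annotation than the one counted here, 5 paralogs (RpL10Aa, RpL37b, RpS28a, RpS10a and RpS15Ab) had no intron, while every partner had an intron in at least 1 transcript. RpS10a lies inside the span of tau, on the opposite strand and without sharing an exon. The sources used here do not state a strand setting for the counting, and reads of near-identical copies may have been divided between paralog and partner.

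The paralogs fell into 2 patterns, which held in both genotypes. RpL22-like, RpL10Aa, RpL37b, RpS28a, RpS10a and RpS19b were higher in males, whereas RpS15Ab and RpL34a were moderately lower in males, like the canonical ribosomal protein genes. In control males against control females, 6 of 8 paralogs were called higher and 2 lower by edgeR, beside 34.4% and 37.6% of all tested genes. In MSL2 males against MSL2 females, which are different libraries, the same 6 and 2 were called, beside 31.5% and 38.5% of all tested genes. No paralog had overlapping sexes in either genotype, a state found for 37.3% (higher) and 39.7% (lower) of all tested genes in control flies and 32.3% and 38.6% in MSL2 flies. RpL22-like, RpL37b and RpS28a were tested only because their male libraries passed the filter. Their direction in these counts was therefore largely set in advance. All 8 partners were called lower in males in both comparisons. In these bulk samples, fewer cells of a type and less RNA per cell cannot be told apart.

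**Figure D1:**
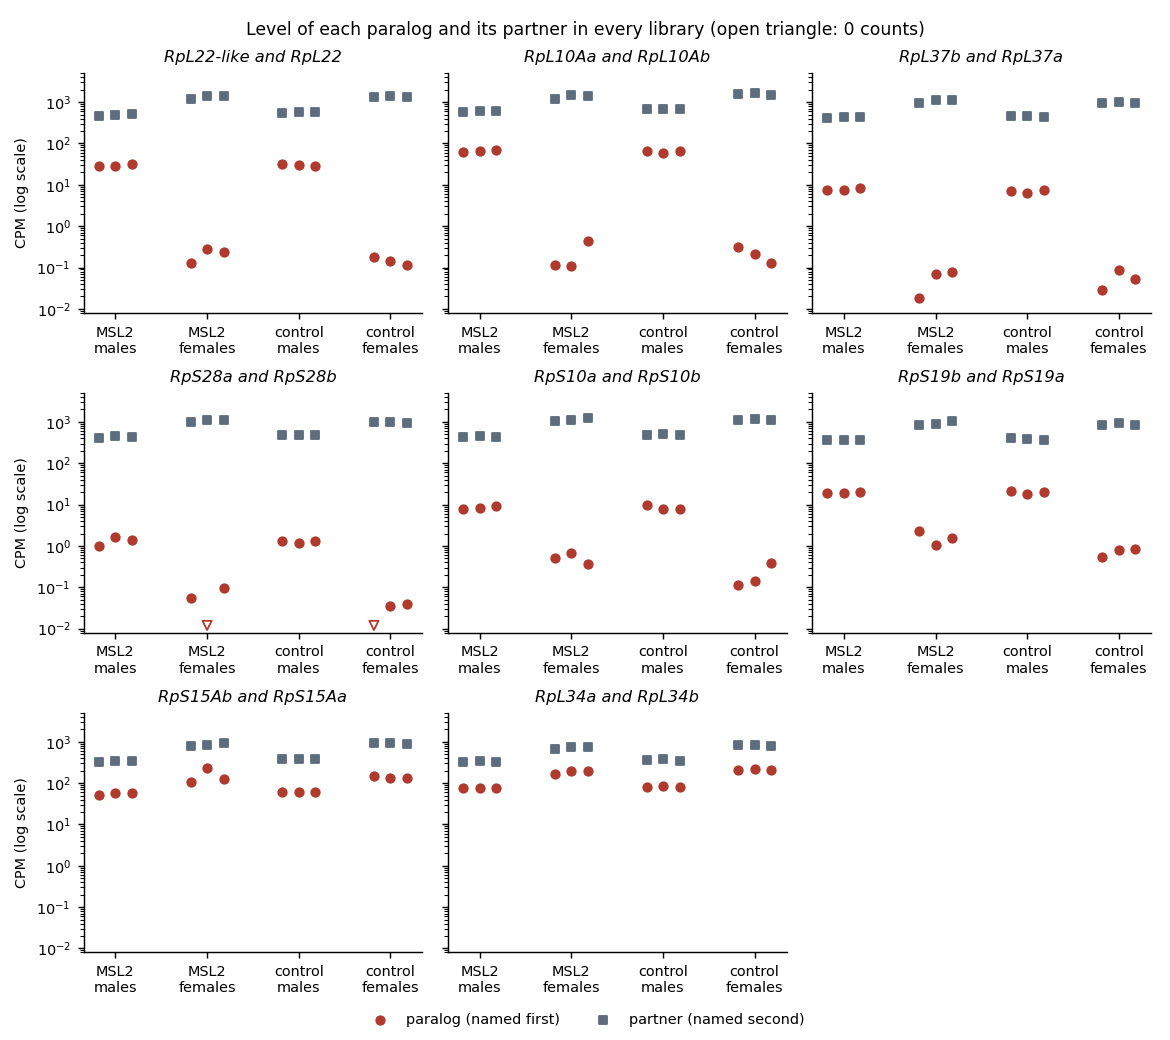
Level of each paralog (circles) and its partner (squares) in every library, in CPM on a log scale, with the 3 libraries of each group side by side; open triangles at the bottom mark libraries with 0 counts. In 6 panels the circles of male libraries stand above those of female libraries, and in the RpS15Ab and RpL34a panels both circles and squares of male libraries stand below those of female libraries, with the RpS15Ab circle of MSL2 female 2 above the rest of its group.

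RpL22-like, a divergent copy of the large-subunit protein L22, had 29.2, 28.6 and 31.6 CPM in MSL2 males and 0.131, 0.284 and 0.235 CPM in MSL2 females. It had 31.7, 29.8 and 28.9 CPM in control males and 0.175, 0.141 and 0.116 CPM in control females. All male libraries were thus far above all female ones, in which 6 to 12 reads were counted. The log2 difference was 7.17 ± 0.17 (SE) between MSL2 males and MSL2 females (edgeR adjusted p = 9.19e-12) and 7.75 ± 0.17 between control males and control females (adjusted p = 6.42e-12).

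RpL10Aa, the copy of the large-subunit protein L10a, had the highest level per length of the 6 male-high genes in males. Its CPM was 63.3, 65.2 and 70.3 in MSL2 males and 0.113, 0.107 and 0.450 in MSL2 females. In control males it was 66.9, 59.3 and 65.4 CPM, against 0.321, 0.212 and 0.129 CPM in control females. The sexes did not overlap, and the log2 differences of 8.10 ± 0.31 between MSL2 males and MSL2 females and 8.30 ± 0.32 between control males and control females were the largest of the 8 genes (edgeR adjusted p = 4.22e-10 and 3.31e-10). Among females, 1 library stood apart: MSL2 female 3 held 23 reads, while the other 2 MSL2 female libraries held 6 and 3.

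RpL37b, the copy of the large-subunit protein L37, had 7.53, 7.50 and 8.17 CPM in MSL2 males and 0.0188, 0.0711 and 0.0782 CPM in MSL2 females. It had 7.12, 6.29 and 7.63 CPM in control males and 0.0292, 0.0883 and 0.0518 CPM in control females. The female values rest on 1 to 5 reads per library, near the floor of 3 counts. Read as a ratio of summed counts, MSL2 males held 1153 reads against 7 in MSL2 females, a 147-fold difference with a 95% counting interval of 71.0 to 366. Control males held 1013 reads against 10 in control females, a 118-fold difference with an interval of 64.1 to 248. These are exact binomial intervals and cover counting error only.

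RpS28a, the copy of the small-subunit protein S28, was the lowest of the 8 paralogs in males. It had 0.978, 1.68 and 1.40 CPM in MSL2 males, from 50, 78 and 72 reads, against 3, 0 and 5 reads in MSL2 females. It had 1.34, 1.21 and 1.29 CPM in control males, from 72, 52 and 61 reads, against 0, 2 and 3 reads in control females. The ratio of summed counts was 22.3 (95% interval 11.1 to 52.3) for MSL2 males over MSL2 females and 43.2 (18.2 to 135) for control males over control females, and edgeR called both comparisons (adjusted p = 2.77e-06 and 1.04e-06).

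RpS10a, the copy of the small-subunit protein S10, had 8.04, 8.15 and 9.45 CPM in MSL2 males and 0.506, 0.675 and 0.371 CPM in MSL2 females. It had 10.1, 7.87 and 8.05 CPM in control males and 0.117, 0.141 and 0.388 CPM in control females. Every male library was above every female one, by a log2 difference of 4.09 ± 0.30 in MSL2 males over MSL2 females and 5.16 ± 0.32 in control males over control females (edgeR adjusted p = 1.53e-07 and 3.30e-08). The gene around it, tau, averaged 91.5 CPM in MSL2 males and 74.9 CPM in MSL2 females, and 83.5 CPM in control males and 61.0 CPM in control females, so its level differed far less between the sexes than that of RpS10a.

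RpS19b, the copy of the small-subunit protein S19, is known from early germ cells. Its CPM was 19.6, 18.6 and 20.1 in MSL2 males and 2.27, 1.07 and 1.60 in MSL2 females. In control males it was 21.7, 18.3 and 20.4 CPM, against 0.554, 0.795 and 0.867 CPM in control females. Of the 6 male-high genes it had the smallest log2 differences, 3.52 ± 0.21 in MSL2 males over MSL2 females and 4.72 ± 0.23 in control males over control females (edgeR adjusted p = 2.66e-08 and 3.33e-09).

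**Figure D2:**
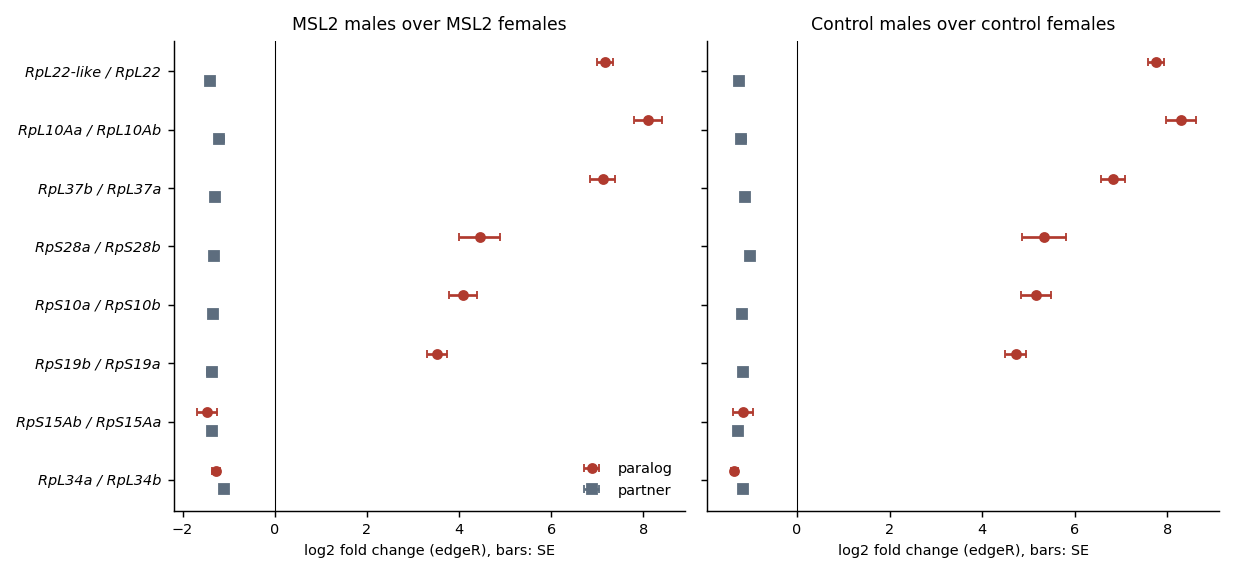
Log2 fold changes of males over females from edgeR, with SE bars, for each paralog (red circles) and its partner (grey squares); the left panel shows MSL2 flies and the right panel control flies. Circles of the first 6 pairs lie between 3.52 and 8.30, those of RpS15Ab and RpL34a lie between -1.47 and -1.17, and all 8 squares lie between -1.41 and -1.02.

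The female libraries were not equally poor in these 6 transcripts. The mean CPM of MSL2 females as a percentage of that of MSL2 males was 0.336% for RpL10Aa, 0.724% for RpL37b and 0.727% for RpL22-like, but 3.79% for RpS28a, 6.06% for RpS10a and 8.46% for RpS19b. Control females against control males gave the same 2 groups of 3, with 0.346% for RpL10Aa, 0.479% for RpL22-like and 0.804% for RpL37b, and 1.93% for RpS28a, 2.49% for RpS10a and 3.67% for RpS19b. Single libraries carried 3 of these values: without MSL2 female 3 the MSL2 value was 0.165% for RpL10Aa and 2.08% for RpS28a, and without control female 3 the control value of RpS10a was 1.49%. The 17 testis germline markers measured (of 18 listed, among them aly, can, bol, Mst87F, dj and betaTub85D) had a median of 0.599% in MSL2 flies and 0.707% in control flies, with ranges of 0.269% to 51.3% and 0.250% to 52.4%. RpL10Aa thus lay below the median testis marker in both genotypes, RpL22-like and RpL37b closer to it, and the other 3 above it. Whether low female counts hold reads carried over from male libraries was not tested.

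Summed over the testis germline markers, CPM was 3428 to 3716 in MSL2 males against 47.1 to 60.5 in MSL2 females, and 2921 to 3388 in control males against 50.0 to 72.0 in control females. The 6 male-high paralogs summed to 129 to 141 CPM in MSL2 males, 2.20 to 3.09 CPM in MSL2 females, 123 to 139 CPM in control males and 1.20 to 1.59 CPM in control females. Both sums were thus far lower in every female library than in any male one. For the 6 paralogs this follows from grouping them by their higher male level in these same libraries. In females most of the marker sum came from bol and twe. The part of testis RNA content in the sex difference was not tested.

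The other 2 paralogs were lower in males. RpS15Ab, the copy of the small-subunit protein S15a, had 52.9, 58.2 and 57.4 CPM in MSL2 males and 108, 230.4 and 129 CPM in MSL2 females. It had 59.6, 61.3 and 61.4 CPM in control males and 147, 134 and 130.1 CPM in control females. Males and females did not overlap, and males were lower by a log2 difference of -1.47 ± 0.22 in MSL2 flies and -1.17 ± 0.22 in control flies (edgeR adjusted p = 8.18e-05 and 0.000446). RpS15Aa changed alike, with -1.36 ± 0.08 in MSL2 flies and -1.28 ± 0.08 in control flies (adjusted p = 1.93e-08 and 3.43e-08).

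RpL34a, the copy of the large-subunit protein L34, had 75.9, 77.9 and 77.7 CPM in MSL2 males and 163, 194 and 200.4 CPM in MSL2 females. It had 81.5, 83.9 and 81.4 CPM in control males and 208, 216 and 206 CPM in control females. The log2 difference of males over females was -1.27 ± 0.08 in MSL2 flies and -1.35 ± 0.08 in control flies (edgeR adjusted p = 3.08e-08 and 1.70e-08). Its partner RpL34b had -1.11 ± 0.08 and -1.17 ± 0.08 (adjusted p = 1.27e-07 and 7.92e-08).

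RNA of the canonical ribosomal protein genes as a group was also lower in males. All 76 canonical ribosomal protein genes tested, of 77 listed, were called lower in control males than in control females, with log2 differences from -1.68 to -1.01 and a median of -1.24. In MSL2 males against MSL2 females all 76 were again lower, from -1.77 to -0.93 with a median of -1.19. RpS15Ab and RpL34a lay inside these ranges in both genotypes, so in whole flies neither showed the sex pattern of the other 6 paralogs.

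MSL2 females were also set against control males, the comparison across sex in the study's design, which shares its libraries with those above. RpL22-like, RpL10Aa, RpL37b, RpS28a, RpS10a and RpS19b were called lower in MSL2 females, and RpS15Ab and RpL34a higher, that is 6 lower and 2 higher beside 31.3% and 38.6% of all tested genes. The filter limits the reading of RpL22-like, RpL37b and RpS28a here too. The log2 differences ran from -8.05 ± 0.31 for RpL10Aa to -3.57 ± 0.21 for RpS19b, and were 1.18 ± 0.08 for RpL34a and 1.36 ± 0.22 for RpS15Ab. All 8 partners were called higher in MSL2 females, by log2 differences of 0.99 to 1.27.

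Levels of different genes were compared per length, as RPKM (CPM per kilobase of the gene's median annotated transcript). In MSL2 males the order was RpL34a at 127 ± 1.75 RPKM (SD, n = 3), RpL10Aa at 84.5 ± 4.60, RpS15Ab at 77.6 ± 3.97, RpS19b at 29.4 ± 1.16, RpL22-like at 24.2 ± 1.30, RpL37b at 18.3 ± 0.897, RpS10a at 14.2 ± 1.31 and RpS28a at 4.45 ± 1.17. No neighbours in that order had overlapping libraries. Control males kept this order except that RpS15Ab, at 83.9 ± 1.40 RPKM, came before RpL10Aa, at 81.4 ± 5.16, with overlapping libraries. There RpL37b also overlapped RpS10a.

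In MSL2 females the order was headed by RpL34a at 307 ± 32.9 RPKM (SD, n = 3) and RpS15Ab at 215 ± 90.3, with overlapping libraries. RpS19b followed at 2.48 ± 0.910 RPKM and RpS10a at 0.857 ± 0.252, and RpL10Aa, RpL22-like, RpS28a and RpL37b lay at 0.133 to 0.284 RPKM, each overlapping the next. In control females RpL34a had 347 ± 8.96 RPKM and RpS15Ab 189 ± 12.1, with no overlap. RpS19b had 1.11 ± 0.247 RPKM and RpS10a 0.357 ± 0.249 there, and the remaining 4 genes lay at 0.0813 to 0.282 RPKM. From RpS10a down, each overlapped the next.

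The share that a paralog takes of its pair shows how far the broadly used copy still dominated. As a percentage of the pair's summed RPKM, RpL10Aa reached 10.7% ± 0.328 in MSL2 males and 9.14% ± 0.581 in control males (SD, n = 3 each), the largest of the 6 male-high genes. RpS19b, RpL22-like, RpL37b and RpS10a took 2.41% to 5.21% of their pairs in MSL2 males and 2.19% to 5.03% in control males, and RpS28a took 0.758% ± 0.176 and 0.647% ± 0.0321. These shares depend on the length used. With the longest annotated transcript, RpS19b, RpL22-like, RpL37b and RpS10a took 4.47% to 7.10% in MSL2 males. In control males they took 4.06% to 6.86%. In every male library the partner was therefore the main copy, by 8.31-fold in MSL2 males and 9.94-fold in control males for RpL10Aa and by more for the other 5. In females the 6 mean shares were at most 0.182% in MSL2 females and 0.0858% in control females, both for RpS19b.

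**Figure D3:**
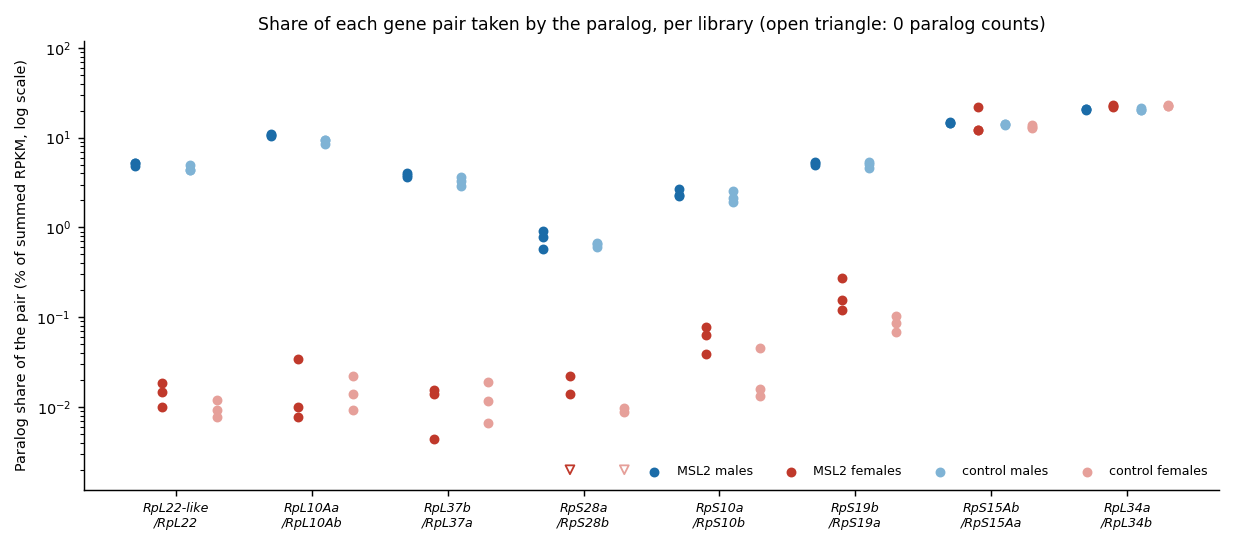
Share of each pair's summed RPKM that came from the paralog, in percent on a log scale, with 1 point per library coloured by group; open triangles mark libraries with 0 paralog counts. The first 6 pairs separate males from females, and the last 2 pairs stay between 12.2% and 23.3% in all groups.

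RpL34a and RpS15Ab made up a larger share of their pairs, in females as well as males. RpL34a took 20.7% ± 0.512 in MSL2 males against 22.6% ± 0.728 in MSL2 females, and 20.5% ± 0.544 in control males against 22.7% ± 0.573 in control females. RpS15Ab took 14.6% ± 0.349 in MSL2 males against 15.5% ± 5.73 in MSL2 females, and 14.1% ± 0.223 in control males against 13.2% ± 0.438 in control females. The higher mean of MSL2 females came from MSL2 female 2 alone, at 22.1%, while the other 2 were at 12.2%, below every MSL2 male.

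The log2 ratio of paralog to partner within a library, which does not depend on library scaling, was tested between the sexes over all 12 libraries. Sex labels were permuted within genotype, which gives 400 arrangements and a smallest possible p of 0.005, and 8 pairs were tested. The ratio was higher in males by 9.52 for RpL10Aa, 8.70 for RpL22-like, 8.11 for RpL37b, 6.22 for RpS28a, 6.00 for RpS10a and 5.46 for RpS19b, each with an exact two-sided permutation p of 0.005 (0.00571 after Benjamini-Hochberg adjustment over the 8 pairs). For RpL22-like, RpL37b and RpS28a, which passed the filter through their male libraries, that direction was largely set in advance. Their p therefore adds little. The value of RpS28a rests on 0 to 5 reads in each female library and on the pseudocount of 0.5 added to both counts. With a pseudocount of 2 it was 5.25, below the 5.83 of RpS10a and the 5.41 of RpS19b. It was lower in males for RpL34a, with a log2 difference of -0.17 (exact permutation p = 0.005, adjusted 0.00571). RpS15Ab showed a difference of 0.03 (exact permutation p = 0.93), which rested on 1 library. Its log2 ratios of -2.66 to -2.52 in males lay above those of all female libraries except MSL2 female 2, at -1.84, and without that library the difference was 0.21 (exact permutation p = 0.005, the smallest that 200 arrangements allow).

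In MSL2 females against control females, RpS19b was the 1 paralog called. Its 2.27, 1.07 and 1.60 CPM in MSL2 females, from 121, 30 and 82 reads, all lay above the 0.554, 0.795 and 0.867 CPM of control females, from 19, 45 and 67 reads. Groups that do not overlap in this direction made up 13.1% of all tested genes. Its log2 fold change was 1.15 ± 0.24 (edgeR adjusted p = 0.0136), and the ratio of summed counts was 2.26 with a 95% counting interval of 1.81 to 2.82. This 1 call higher and 0 lower among 8 paralogs stood beside 6.62% and 3.67% of all tested genes. At an unadjusted edgeR p below 0.05 there were 3 paralogs (RpS19b, RpS10a and RpL34a). The share of all tested genes below that unadjusted threshold is not given, here or in the later comparisons. Such counts are therefore not read as a result. The highest RpS19b value came from MSL2 female 1, and without that library the log2 fold change was 0.85 (adjusted p = 0.0328). The call was lost when the spread was estimated from the 6 female libraries alone (adjusted p = 0.146). MSL2 female 1 also stood apart in ovary germline markers, which summed to 1334, 3180.5 and 3627 CPM over the 16 genes in MSL2 females 1 to 3, against 3827, 3552 and 2806 CPM in control females. Eggshell markers summed to 246, 1018 and 1638 CPM in MSL2 females, all below the 4217, 3363 and 2377 CPM of control females, with 3 of 13 called lower and 0 higher. The part of ovary content in the RpS19b difference was not tested.

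**Figure D4:**
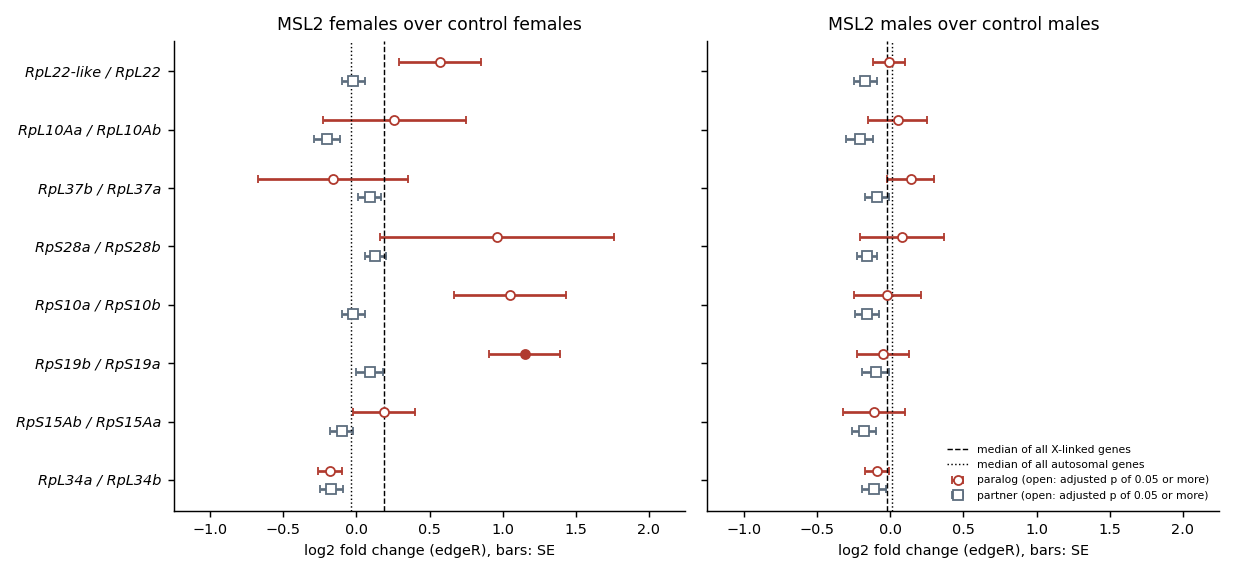
Log2 fold changes from edgeR with SE bars for each paralog (red circles) and its partner (grey squares), in MSL2 females over control females (left) and MSL2 males over control males (right); filled symbols were called, and vertical lines mark the median of all X-linked and of all autosomal genes. Only RpS19b, at 1.15 in the left panel, is filled, and in the right panel all symbols lie between -0.21 and 0.14.

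RpS10a had 0.506, 0.675 and 0.371 CPM in MSL2 females and 0.117, 0.141 and 0.388 CPM in control females. The groups overlapped through control female 3, and the log2 fold change of 1.05 ± 0.38 was not called (edgeR adjusted p = 0.1). DESeq2 called it (log2 fold change 1.02, adjusted p = 0.0279), as did edgeR without control female 3 (1.90, adjusted p = 0.0101). RpS28a, at 0.96 ± 0.80, and RpL22-like, at 0.57 ± 0.28, rest on 8 and 27 reads in MSL2 females against 5 and 23 in control females and were not called (adjusted p = 0.444 and 0.332).

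The testis germline markers were not called in this comparison. By edgeR 0 of 17 were called, beside 6.62% higher and 3.67% lower of all tested genes. For 17 genes this is close to those shares and says little. Log2 fold changes ran from -0.88 to 0.65, with a median of -0.16. Their summed CPM was 47.1, 55.5 and 60.5 in MSL2 females and 72.0, 59.7 and 50.0 in control females, with overlapping groups. In females most of each sum came from bol and twe, so it says little about the other markers. The gene bol had 27.9, 24.5 and 23.6 CPM in MSL2 females and 21.6, 19.5 and 21.2 CPM in control females. The gene twe had 4.76, 15.6 and 18.6 CPM in MSL2 females and 31.1, 26.6 and 14.1 CPM in control females. Mst87F, a structural gene of sperm tails, had 0.919, 1.17 and 1.39 CPM in MSL2 females, against 2.31, 1.11 and 1.22 CPM in control females.

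The 6 X-linked partners had a median log2 fold change of 0.04 in MSL2 females over control females, with a range of -0.10 to 0.13, and the autosomal partners RpL10Ab and RpL34b had -0.20 and -0.17. By edgeR 0 of the 8 partners were called, as with DESeq2, and 2 had an unadjusted p below 0.05. The 2075 X-linked genes tested had a median of 0.19, with 457 called higher and 15 lower. The 10985 autosomal genes tested had a median of -0.04, with 408 called higher and 464 lower. Among the canonical ribosomal protein genes the median was 0.03 for the 12 on the X, of which 0 were called, and -0.22 for the 64 on autosomes, of which 5 were called lower. The 8 paralogs, all autosomal, had a median of 0.41, with log2 fold changes from -0.18 for RpL34a to 1.15 for RpS19b, and only RpS19b was called. That median lies between RpL10Aa at 0.26 and RpL22-like at 0.57. These 2 genes rest on 32 and 27 reads in MSL2 females against 33 and 23 in control females. It therefore does not show a shared rise of the paralogs.

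RpL34a lay with the autosomal ribosomal protein genes. Its 163, 194 and 200.4 CPM in MSL2 females were all below the 208, 216 and 206 CPM of control females, and its log2 fold change of -0.18 ± 0.08 was not called (edgeR adjusted p = 0.147). Groups that do not overlap in this direction were found for 13.5% of all tested genes. In RpS15Ab, MSL2 female 2 stood apart at 230.4 CPM, while MSL2 females 1 and 3 had 108 and 129 CPM. Its share of the pair in that library was 22.1%, against 12.2% in the other 2, and RpS15Aa itself had 826 CPM there, between the 792 and 947 CPM of the other 2. The log2 fold change of RpS15Ab was 0.19 ± 0.21 (adjusted p = 0.588) and -0.21 without MSL2 female 2.

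In MSL2 males against control males, 0 of 8 paralogs were called by edgeR, beside 0.812% of all tested genes, and 0 had an unadjusted p below 0.05. DESeq2 also called 0 paralogs. Log2 fold changes ran from -0.11 ± 0.21 for RpS15Ab to 0.14 ± 0.16 for RpL37b. RpS15Ab and RpL34a had all MSL2 males below all control males, a pattern found for 12.1% of all tested genes. The partners lay at -0.21 to -0.09, with 0 of 8 called and 3 at an unadjusted p below 0.05. In 7 of the 8, all MSL2 males were below all control males, and the 76 canonical ribosomal protein genes had a median of -0.15, with 0 called.

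Whether the effect in females differed from that in males was tested as an interaction. By edgeR 0 of 8 paralogs were called, beside 1.26% of all tested genes, and 2 had an unadjusted p below 0.05, RpS19b and RpS10a. For RpS19b the difference of log2 fold changes, females minus males, was 1.20 ± 0.30 (adjusted p = 0.0985). DESeq2 called it (1.17, adjusted p = 0.00166), and edgeR called RpS19b without MSL2 female 2 (1.39, adjusted p = 0.038) and RpS10a without control female 3 (1.92, adjusted p = 0.047).

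The genes most like each paralog in pattern were found by the root mean square difference of log2 CPM, centred on each gene, over the 12 libraries, among 10965 genes with a mean log2 CPM of at least 1. The paralogs were not taken as candidates for one another. The log2 CPM held a prior count of 2, which damps differences at very low counts. RpL22-like was nearest to scpr-A (0.17) and CG16739 (0.19), RpL10Aa to CG1324 (0.11) and CG31679 (0.14), and RpL37b to CG33191 and CG1722 (0.22 each). RpS28a was nearest to CG9445 (0.34) and CG32812 (0.37), RpS10a to Rpt3R (0.32) and CG32572 (0.34), and RpS19b to CG32812 (0.24) and CG11294 (0.27). RpL34a was nearest to 2 canonical ribosomal protein genes, RpL19 and RpS12 (0.04 each). The partners of the 6 male-high genes ranked 9658 or later of the 10965 genes, RpS15Aa ranked 415 for RpS15Ab and RpL34b 141 for RpL34a.

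Some of these genes shared a high female library with their paralog and others did not. CG1324, nearest to RpL10Aa, had 0.581, 0.711 and 1.88 CPM in MSL2 females and 1.60, 1.13 and 0.776 CPM in control females, highest in MSL2 female 3 as RpL10Aa was. Rpt3R, a copy of a proteasome ATPase gene and nearest to RpS10a, had 1.65, 1.53 and 1.45 CPM in MSL2 females and 0.583, 0.812 and 0.841 CPM in control females, with no overlap. Among MSL2 females Rpt3R was highest in MSL2 female 1, whereas RpS10a was highest in MSL2 female 2. Among control females each was highest in control female 3, but there Rpt3R was close to its value in control female 2, unlike RpS10a. The gene caz, which encodes an RNA-binding protein and was nearest to RpS15Ab (0.10), had 76.8, 130.2 and 80.4 CPM in MSL2 females and 81.6, 79.5 and 79.2 CPM in control females. CG14464, the next nearest to RpS15Ab (0.13), had 27.5, 46.4 and 36.2 CPM in MSL2 females and 40.7, 34.6 and 35.5 CPM in control females. Both were highest in MSL2 female 2, the library in which RpS15Ab stood apart. These genes were chosen for their likeness over the same libraries, so their values are a description.

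Other genes named after a ribosomal protein gene, 6 in all and taken by name only, held 1 more male-high gene and 5 that were lower in males. Whether each of them encodes a ribosomal protein was not examined, and the -like genes need not be second copies. RpS28-like, on 2L, had 282, 261 and 315 reads in MSL2 males against 1, 1 and 2 in MSL2 females, and 313, 207 and 264 reads in control males against 2, 2 and 4 in control females, so the sexes did not overlap. Like RpL22-like, RpL37b and RpS28a, it passed the filter on low counts through its male libraries. RpS14a, RpS14b, RpLP0-like, RpL7-like and RpL24-like were called lower in control males than in control females, by log2 differences of -2.06 to -1.02. None of the 6 was called in MSL2 females against control females, where their median log2 fold change was -0.16, or in MSL2 males against control males.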

How the data were processed

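Whole adult flies were sequenced as 12 libraries, 3 biological replicates in each of 4 groups taken from the sample titles; p-values measure the spread between these libraries. Per the labels' protocols, RNA was isolated with TRIZOL and prepared with TruSeq reagents. The submitters' processing notes name TopHat, HTSeq and dm3 with no version; counting mode and strand are not stated in the sources used here. The authors deposited 1 autosomal and 1 X-linked table of raw read counts per transcript, with a normalized value beside each count; checked on the values, the deposited normalized column is a fraction, the count over its own table's total (largest difference 5.00e-10), and was used for this check only. The total row of each table was left out.

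The transcript with the highest total was kept per gene, which gave 14161 genes. Counts of both tables were analysed together in R 4.3.3 with edgeR 4.0.16 (TMM; minimum count of 10 in filterByExpr; quasi-likelihood F test with group means over all 12 libraries; Benjamini-Hochberg threshold 0.05); SE is the log2 fold change over the square root of F. The edgeR steps were tested on simulated counts for MSL2 females against control females, and the permutation of 3 against 3 libraries on fixed values. Alternatives were DESeq2 1.42.0, RLE factors, TMM from autosomal genes, no filter, summed transcripts, only the libraries compared, a replicate block and leaving out each library. Pair ratios used a pseudocount of 0.5 (alternative 2) and exact permutation tests with scipy 1.17.1; 3 against 3 libraries cannot give a p below 0.1, so single comparisons of ratios are not quoted. RPKM used median transcript lengths of a later annotation (Ensembl, assembly Release 6; the longest transcript was the alternative), so no coordinates are given. Chromosome arms came from RefSeq names. Libraries differed beyond sampling noise within every group (chi-square per degree of freedom 13.7 to 295), so none was counted as a repeat.

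The text names 8 paralogs and their partners, and for each of these paralogs the 2 nearest genes; tau, Mst87F and the marker lists stand beside a result. Members and lists were chosen with earlier results of these data known. A 9th listed paralog and its partner are not reported here. The listed symbols don and RpL10 were not analysed here. RpL37b and RpL37a are now named RpL37-2 and RpL37-1.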

Additional observations from a re-analysis of the deposited data

How the results depend on the processing

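In the 3 comparisons between the sexes, all 8 paralogs and all 8 partners kept direction and call in every alternative run (104 values for the paralogs and 104 for the partners in each comparison), and no scaling moved the median of all genes by 0.1 or more. The transgene comparisons depended on the settings, and the cause was not tested. MSL2 females over control females gave 1344 calls, against 2054 with DESeq2, 156 with the 6 libraries alone, 669 with a replicate block and 543 to 2851 when 1 library was left out; paralogs called higher were 1, against 2 with DESeq2, 0 with the 6 libraries alone and 1 to 2 when 1 library was left out. MSL2 males over control males gave 106 calls, against 292 with DESeq2, 287 with the 6 libraries alone, 51 with a replicate block and 41 to 57 when 1 library was left out. The interaction gave 165 calls, against 421 with DESeq2, 10 with a replicate block and 23 to 250 when 1 library was left out; paralogs called higher were 0, against 1 with DESeq2 and 0 to 1 when 1 library was left out.

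Same-numbered libraries did not vary together (r of their deviations from -0.56 to 0.6), so the numbers were not taken to pair the samples; with a replicate block RpS19b kept its call at a log2 fold change of 1.11 (edgeR adjusted p = 0.0352).

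Uncalled log2 fold changes near 0 turned sign when 1 library was left out. In MSL2 females over control females they ran from -0.84 to 0.70 for RpL10Aa, -0.64 to 0.34 for RpL37b, -0.21 to 0.39 for RpS15Ab, -0.07 to 0.06 for RpL22 and -0.08 to 0.04 for RpS10b. In MSL2 males over control males they ran from -0.05 to 0.03 for RpL22-like, -0.10 to 0.27 for RpS28a, -0.09 to 0.11 for RpS10a and -0.11 to 0.01 for RpS19b. For the interaction they ran from -0.89 to 0.64 for RpL10Aa, -0.78 to 0.19 for RpL37b, -0.09 to 0.50 for RpS15Ab and -0.06 to 0.09 for RpL10Ab. TMM from autosomal genes turned RpL22 to 0.01 and RpS10b to 0.02 in females, and DESeq2 and RLE factors turned RpL10Ab to -0.04 in the interaction. With a pseudocount of 2 the ratio of RpL37b to RpL37a in control males over control females was 7.34, against 7.92, and that of RpS28a to RpS28b 5.38, against 6.41. In the sex test of pair ratios, which was run with 2 counts added, with summed transcripts and without each library after seeing the data, the other 7 pairs kept direction and p below 0.05, while the RpS15Ab difference of 0.03 ran from -0.05 to 0.21 without 1 library. Depth limits RpS28a and RpL37b in females, at 0 to 5 reads per library.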
